A study of Mus musculus with 2 samples.

Results

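Cajal-Retzius cells were taken from single-cell RNA libraries of mouse hippocampus as barcodes with at least 2 unique molecular identifiers (UMIs, each standing for 1 captured RNA molecule) of Reln, at least 1 UMI of Trp73, Ndnf, Lhx1, Lhx5 or Nhlh2, and no more than 1 detected gene among Cx3cr1, Csf1r, Cldn5, Flt1, Mog, Aqp4, Dcn and Kcnj8, which mark microglia, endothelium, oligodendrocytes, astrocytes, fibroblasts and pericytes. The cells were thus selected on measured values, their UMIs of these 14 genes, and the rule found 141 of 28586 barcodes. Both libraries came from male C57BL/6 mice of 6 months, although the sample titles call the brains aged. The control library came from animals given saline, with 107 Cajal-Retzius cells among 21583 barcodes. The EMF_AuNPs library came from animals whose hippocampus was injected with gold nanoparticles (AuNPs) and which were then kept between Helmholtz coils that produce an electromagnetic field (EMF) for 3 weeks, with 34 Cajal-Retzius cells among 7003 barcodes. The protocol says that the coil pair served the control group too, so whether control animals were exposed to the field is not clear from it. Each group is 1 library, and how many animals went into a library is not stated. No comparison between the groups therefore has a replicate, no p-value is given, and every interval is a 95% interval for counting error only, with PCR and animal differences left outside it.

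Cajal-Retzius cells are among the earliest-born neurons of the cortex and hippocampus and sit close to the surface of the cortex and along the hippocampal fissure. They secrete reelin, the protein of Reln, which binds the receptors encoded by Vldlr and Lrp8 on other neurons, and these pass the signal on through the adaptor Dab1 to guide the placing of neurons and the growth of dendrites. Most Cajal-Retzius cells of the neocortex die soon after birth, whereas more of those in the hippocampus persist. They use glutamate, loaded into vesicles by the transporter encoded by Slc17a6, and depend on the p53 relative encoded by Trp73.

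Reln, which defined the cells, lies on the minus strand of chromosome 5 (GRCm38, the same build as mm10, 21884454 to 22344702) and is shown here with the stretch just before its start because the other results rest on its detection. The 250 bases upstream of the RefSeq start, chr5:22344706-22344955 in GRCm38.p6, read 5′ to 3′ on the minus strand, are as follows.
Reln upstream: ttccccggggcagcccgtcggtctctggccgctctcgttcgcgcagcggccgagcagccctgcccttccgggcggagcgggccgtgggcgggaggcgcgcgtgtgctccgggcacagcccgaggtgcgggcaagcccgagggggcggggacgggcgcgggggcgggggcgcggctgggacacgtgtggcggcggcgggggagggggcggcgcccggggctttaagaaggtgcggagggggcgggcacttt
The stretch has 80% G and C and 37 CpG pairs, against a median of 6 in the 32851 windows of the same length listed by RefSeq. It holds neither motif searched, so no letter is in capitals. CAGCTG, a form of the E-box bound by proteins of the family of Nhlh2, reads the same on both strands. It stood in the windows of 3 of 19 matched genes (Snhg11, Syt1 and Trp73), out of 26 markers and leading genes looked up. Of all windows 13.0% held it, but a gene can have more than 1 window, as Trp73 did. Other E-box forms were not searched, among them cacgtg, which the Reln stretch holds. The homeodomain core TAATTA, also the same on both strands and not overlapping CAGCTG, stood in none of the 19, against 4.84% of all windows.

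Cajal-Retzius cells made up nearly the same share of both libraries. The share was 0.496% of control barcodes (Clopper-Pearson interval 0.406 to 0.599) and 0.486% of EMF_AuNPs barcodes (0.336 to 0.678), a difference of -0.0103 percentage points (Newcombe interval -0.182 to 0.200). A difference anywhere within that interval was not detectable at this number of cells. The cells were shallow in both libraries, with a median of 1806 UMIs in control (500 to 5250) and 1353 in EMF_AuNPs (611 to 4958), where all barcodes had medians of 1904 and 2310. The Cajal-Retzius cells of EMF_AuNPs were thus the shallower set in the deeper library. Summed, they gave 205587 UMIs in control and 56018 in EMF_AuNPs. The libraries shared 38 barcode sequences, none of them a Cajal-Retzius cell in both.

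The edges of the rule were close. Of the barcodes with at least 2 Reln UMIs, 181 in control and 72 in EMF_AuNPs, 55 and 19 had a partner gene but 2 or more genes of other cell types, with median depths of 2766 and 2625 UMIs. A further 19 and 19 had no partner gene, 14 of them in each library with no more than 1 gene of other cell types. Just inside the threshold on Reln were 20 and 7 cells with exactly 2 UMIs, and just outside it 17 and 14 barcodes with exactly 1 and a partner gene. Cacna2d2, which the rule did not use, stood at 967 CPM (the gene's UMIs per 1000000 summed UMIs of the set of cells) in the control cells just inside and 876 in those just outside, and at 1746 and 438 in EMF_AuNPs. Slc17a6 stood at 200 and 118 CPM in control and at 698 and 0 in EMF_AuNPs, where the outside set held only 18250 UMIs.

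**Figure D1:**
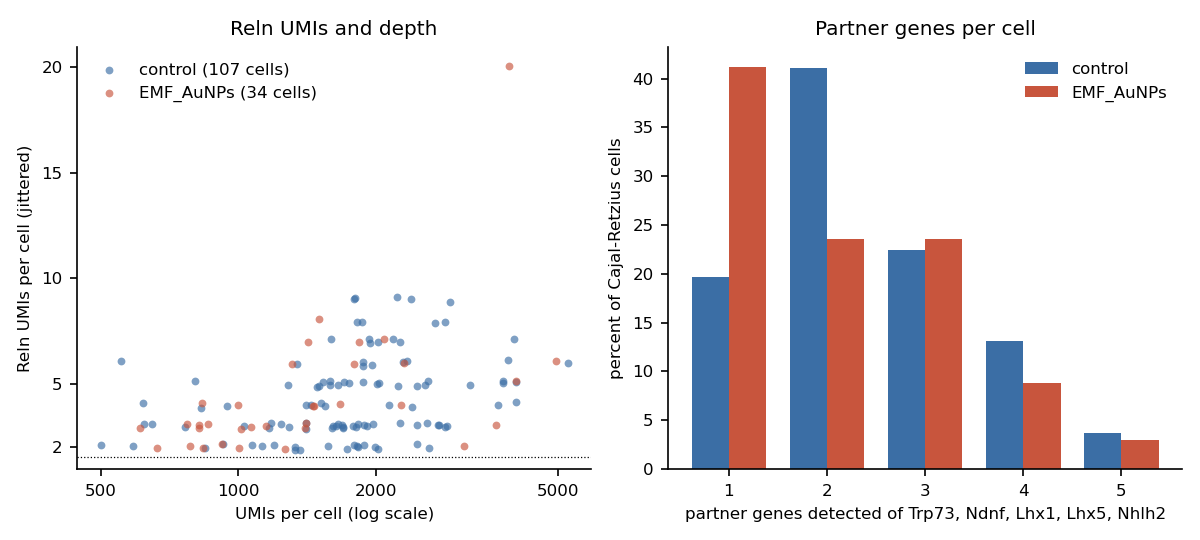
Left, Reln UMIs (jittered) against UMIs per cell on a log scale for each Cajal-Retzius cell, with the 2-UMI threshold as a dotted line under the lowest points. Right, percent of the cells with 1 to 5 of the partner genes detected. EMF_AuNPs cells (red) more often had 1 partner, 14 of 34 against 21 of 107, and 11 of 34 had under 1000 UMIs against 12 of 107 in control.

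The genes that chose the cells are given as a description. Reln UMIs per cell ran from 2 to 9 with a median of 4 in control, and from 2 to 20 with a median of 3 in EMF_AuNPs. The EMF_AuNPs cell with 20 had 3904 UMIs and all 5 partner genes, and held 13.4% of that library's Reln UMIs in these cells. Ndnf, which encodes a secreted neurotrophic factor, was the partner detected most often, in 103 of 107 control and 27 of 34 EMF_AuNPs cells. Lhx1, which encodes a LIM-homeodomain transcription factor, was detected in 60 and 11 cells, and its relative Lhx5 in 20 and 9. Nhlh2, for a basic helix-loop-helix factor, was detected in 38 and 9 cells, and Trp73 in 36 and 15. All 5 partners were found together in 4 control cells and 1 EMF_AuNPs cell. The number of partners was higher in deeper cells. Control cells under 1000 UMIs had 1.5 on average and those with 2000 or more had 2.89, and in EMF_AuNPs the averages were 1.09 and 3.38.

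Reln stood at 2233 CPM in control (2033 to 2447) and 2660 in EMF_AuNPs (2250 to 3123), a log2 ratio of EMF_AuNPs over control of 0.25 (-0.02 to 0.52; ratios here have 1 CPM added to both sides). With libraries scaled by the trimmed mean of M-values (TMM) the same ratio was -0.11, so its sign depends on the scaling. Ndnf stood at 2276 and 1232 CPM (log2 ratio -0.89, -1.27 to -0.52), and Lhx1 at 506 and 196 (-1.36, -2.41 to -0.47). Trp73 stood at 229 and 393 CPM (0.78, -0.02 to 1.54). Nhlh2 was at 306 and 303 CPM and Lhx5 at 112 and 179. Since these genes set membership in a way that depends on depth, and depth differed between the 2 sets of cells, their ratios are not read further.

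Markers of Cajal-Retzius cells that the rule did not use were present as well. Of 15 such markers, 8 were at least 2-fold above all other barcodes of the same library in both libraries. Slc17a6, the vesicular glutamate transporter, stood at 287 CPM in control (218 to 370) and 268 in EMF_AuNPs (150 to 442), against 1.75 and 1.80 CPM in all other barcodes. Its UMIs came from 41 control and 8 EMF_AuNPs cells. Tbr1, a T-box factor of cortical glutamatergic neurons, stood at 122 and 179 CPM, and Ebf3, an early B-cell factor found in hem-derived Cajal-Retzius cells, at 151 and 125. Calb2, which encodes the calcium-binding protein calretinin, was at 233 CPM in control (172 to 310) and 125 in EMF_AuNPs (50.2 to 257). Cxcr4, the receptor for the chemokine encoded by Cxcl12, was at 53.5 and 71.4 CPM from 11 and 4 UMIs. Lhx1os, on the opposite strand beside Lhx1 with no overlap between their annotated spans, was at 297 and 179 CPM. Ebf2 was at 0 UMIs in both, Mab21l1 had 1 UMI in all, and Ebf1, at 14.6 and 17.9 CPM, was below the other barcodes (36.9 and 54.9). Nhlh1 had 8 UMIs in control and 0 in EMF_AuNPs. Zic1 and Emx2 were 2-fold above other barcodes in control only. In EMF_AuNPs each stood at 35.7 CPM from 2 UMIs, against 46.1 and 24.9 in other barcodes. Zic2 did not reach 2-fold in both libraries either.

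Cacna2d2, which encodes an auxiliary α2δ subunit of voltage-gated calcium channels (chromosome 9, 107399612 to 107529343, plus strand), was first by fold over other barcodes, in the library where that fold was lower, among genes outside the rule with at least 100 UMIs in the cells of both libraries together and found in at least 20 of them. It stood at 1226 CPM in control (1079 to 1387) and 1357 in EMF_AuNPs (1069 to 1698), 52.6 and 61.3 times the level of all other barcodes (1 CPM added). With fewer UMIs, Slc17a6 (96.1), Lhx1os (93.3) and Tbr1 (54.8) had a larger lower fold than the 52.6 of Cacna2d2. Per cell it ran from 0 to 8 UMIs in both libraries, with a UMI in 95 of 107 and 25 of 34 cells. With each cell thinned at random to 500 UMIs, 51.4% in control and 50% in EMF_AuNPs still had one, where 0.671% and 1.05% of barcodes with both microglial genes Cx3cr1 and Csf1r did. The intervals of these shares were 41.5 to 61.2% and 32.4 to 67.6%, so no difference was detectable. The log2 ratio of Cacna2d2 was 0.15 (-0.24 to 0.52), and -0.22 with TMM factors.

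Most other genes that met these minimums and led the cells are known from neurons in general. The 20 with the largest lower fold over other barcodes held Meg3 and Snhg11 (long noncoding RNA genes rich in neurons), Gap43 (a growth cone protein), Ly6h, Chgb (a granin of dense-core vesicles), Dync1i1 (an intermediate chain of the motor dynein), Celf4, Stmn2 and Stmn3 (stathmins, which bind tubulin), Ndn, Pcp4, Syt1 (the calcium sensor of vesicle release), Olfm1, Rtn1, Bex2, 6330403K07Rik, Map1b, Uchl1 and Hdgfrp3 after Cacna2d2. Both Meg3 and Snhg11 were detected in 102 of 107 control and 31 of 34 EMF_AuNPs cells, and neither in 2 and 1.

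Markers outside the rule also differed in level between the cells and the other neurons of the libraries. A gate on genes of excitatory and granule neurons found 215 control and 27 EMF_AuNPs barcodes, and a gate on Gad1, Gad2 and Slc32a1, the genes for making and loading GABA, found 22 and 11. Slc17a6 and Ebf3 were at 0 UMIs in all 4 sets, where 3 UMIs would be 5.54 and 64.8 CPM in the excitatory sets and 68.5 and 225 in the GABAergic ones. Cacna2d2 was at 14.8 and 0 CPM in excitatory barcodes and at 114 and 75.0 in GABAergic ones. Reln itself was at 114 CPM in control GABAergic barcodes, some of which are known to make reelin. In the Cajal-Retzius cells Gad1 had no UMI in either library, which allows a share of cells with one of up to 2.80% in control and 8.82% in EMF_AuNPs, and 4 and 1 cells had a UMI of any of the 3 GABA genes. None of those 5 cells had Slc17a6. Slc17a7, the glutamate transporter of granule and pyramidal cells, had a UMI in 3 and 2 cells, and Prox1, a granule cell factor, stood at 24.3 and 17.9 CPM against 175 and 86.3 in excitatory barcodes. Cck alone of 15 GABAergic markers was at least 2-fold above other barcodes in both libraries, at 151 and 250 CPM. C1ql2 alone of 10 excitatory and granule neuron markers was so too. A single control cell held 25 of the 77 control UMIs of those 10 markers.

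**Figure D2:**
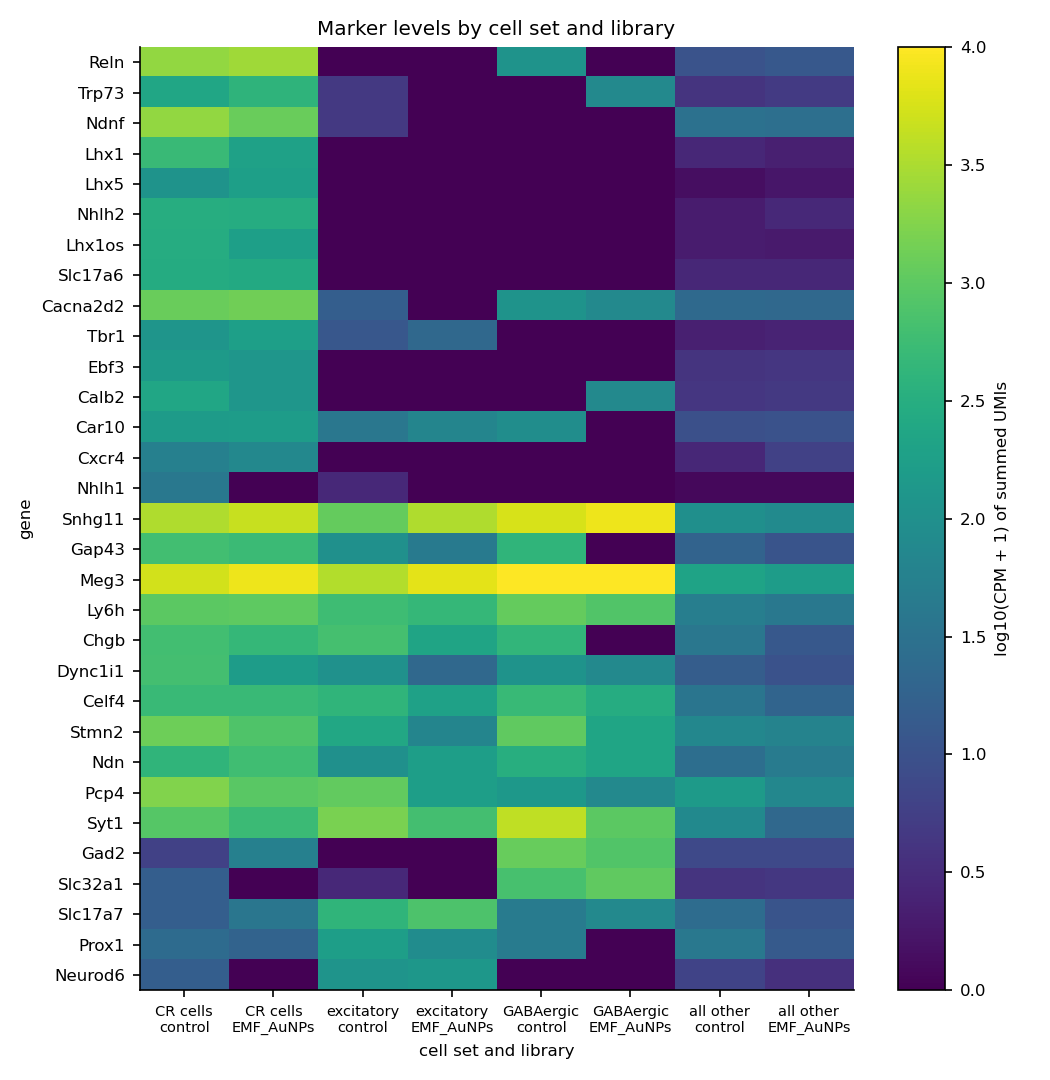
Levels as log10(CPM + 1) of summed UMIs for the rule genes, other Cajal-Retzius markers, leading genes and markers of other neurons (rows) in Cajal-Retzius cells, gated excitatory and GABAergic barcodes and all other barcodes of each library (columns). The rule genes and most other Cajal-Retzius markers are brightest in the 2 Cajal-Retzius columns, while Snhg11 and Meg3 are bright in all 6 neuron columns.

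RNA of other cell types was present in the Cajal-Retzius cells, and differed between the libraries. The 10 microglial markers summed to 1231 CPM in control (1084 to 1392) and 3874 in EMF_AuNPs (3375 to 4425), with at least 1 UMI in 73 of 107 and 34 of 34 cells. In all other barcodes the same sums were 6194 and 6996 CPM, in excitatory barcodes 747 and 4468, and in GABAergic barcodes 958 and 3377, so the higher level in EMF_AuNPs was seen in each set of neurons. Trem2, a microglial receptor, stood at 82.7 CPM in control and 482 in EMF_AuNPs (log2 ratio 2.53, 1.62 to 3.51). All 10 microglial markers had a UMI in the cells. The 10 astrocyte markers, with a UMI in every cell of both libraries, summed to 13634 and 23028 CPM, where all other barcodes had 19512 and 25488. A single EMF_AuNPs cell held 309 of its library's 1290 UMIs of that list. The EMF_AuNPs cell with 19.7% of the Apoe UMIs had 3661 UMIs, among them 3 of Reln and 1 of Trp73. It was the cell of that library with neither Meg3 nor Snhg11, and had 0 UMIs of Cacna2d2, Slc17a6, Stmn2 and Syt1. Its markers outside the rule thus do not bear out the name Cajal-Retzius cell, but it is kept in the values given. Hbb-bs, a haemoglobin gene, was found in 61 of 107 control and 34 of 34 EMF_AuNPs cells. The red blood cell list summed to 7457 and 9086 CPM, but 1 control cell with 720 Hbb-bs UMIs carried most of the control sum, which was 728 CPM without it. Cd74 (chosen after its values were seen) had 48 UMIs in 1 EMF_AuNPs cell and 2 in all of control. Whether RNA of other cells in these barcodes shaped the ratios below was not tested.

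**Figure D3:**
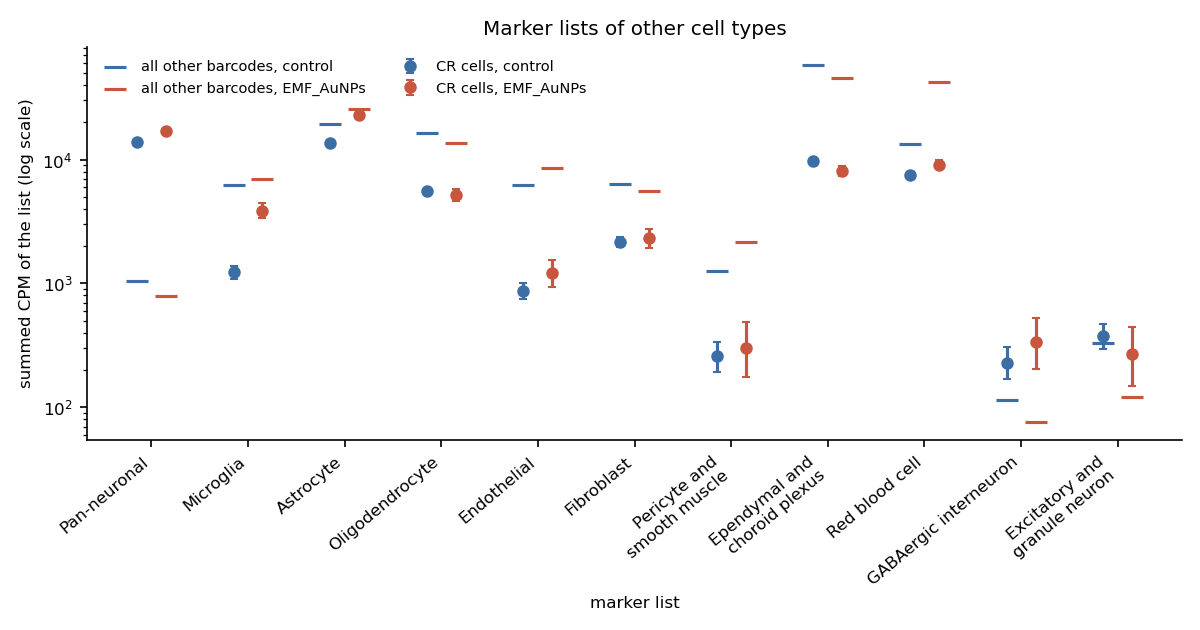
Summed CPM (log scale) of marker lists in Cajal-Retzius cells (points, with 95% counting intervals) and in all other barcodes (bars) of the control (blue) and EMF_AuNPs (red) libraries. The microglial list stands at 1231 CPM in the control cells and 3874 in the EMF_AuNPs cells, and the pan-neuronal list far above its level in other barcodes in both. The microglial, astrocyte, oligodendrocyte, endothelial, fibroblast and pericyte lists hold genes that the rule limits. Where their points lie below the bars, this is partly set by the selection.

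Of 24130 genes listed, 12159 had a UMI in the Cajal-Retzius cells, and 1477 were compared between the libraries, which had 30 or more UMIs over both sets of cells and a mean level of 50 CPM or more. These had a median of 42 UMIs in control but 11 in EMF_AuNPs, so most single ratios are loose. Ratios of at least 1.5-fold were found for 241 genes higher in EMF_AuNPs (16.3%) and 364 lower (24.6%). The counting interval also excluded 0 for 109 of these higher (7.38%) and 135 lower (9.14%). The median log2 ratio was -0.12, and relative to it 300 genes were higher (20.3%) and 279 lower (18.9%). Of the calls 39.8% were higher, but 51.8% relative to the median and 12.3% with TMM factors, which put the median at -0.49, so only ratios well away from 0 keep their direction under each scaling.

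Among the leading genes, the 2 long noncoding RNAs were higher in EMF_AuNPs. Meg3 (chromosome 12, 109541001 to 109571726) stood at 5389 CPM in control (5077 to 5716) and 8033 in EMF_AuNPs (7308 to 8811), with per-cell UMIs of 0 to 36 (median 8) and 0 to 59 (median 7.5). Its log2 ratio was 0.58 (0.41 to 0.74), and 0.21 with TMM factors. Of the 5 compared long noncoding RNAs, only Neat1, at 0.71 (-0.35 to 1.71), passed 1.5-fold. Snhg11 stood at 3366 and 4677 CPM (0.47, 0.26 to 0.68), and at 0.11 with TMM factors. In all other barcodes the log2 ratios of Meg3 and Snhg11 were -0.34 and -0.24, but those barcodes are mostly not neurons. In excitatory barcodes Meg3 stood at 3463 and 6928 CPM and Snhg11 at 1131 and 3302, so both were higher in EMF_AuNPs there too. In GABAergic barcodes Snhg11 stood at 5705 and 7955 CPM, but Meg3 at nearly the same level in both libraries, 15904 and 16135. After the same thinning Meg3 was left in 83.2% of the control cells and 94.1% of the treated ones, and Snhg11 in 81.3% and 79.4%.

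Of the 20 leading genes, Dync1i1, Stmn2, Syt1, Pcp4 and Olfm1 were at least 1.5-fold lower in EMF_AuNPs. That share was close to the 24.6% of all compared genes. Dync1i1 (chromosome 6, 5725639 to 6028039) stood at 637 CPM in control (533 to 756) and 161 in EMF_AuNPs (73.5 to 305), a log2 ratio of -1.98 (-3.15 to -1.02). It had a UMI in 65 of 107 control and 8 of 34 EMF_AuNPs cells, and after thinning to 500 UMIs in 28.0% (19.8 to 37.5) and 5.88% (0.72 to 19.7), against 0.336% and 0.150% in barcodes with Cx3cr1 and Csf1r. Its ratio lay between -2.34 and -1.10 in all 16 alternatives run. In all other barcodes it was -0.57, and in excitatory barcodes Dync1i1 went from 105 to 21.6 CPM, the latter 1 UMI. Stmn2 stood at 1308 and 785 CPM (-0.74, -1.23 to -0.27), with a thinned share of 48.6% and 20.6%. Syt1 stood at 871 and 536 CPM (-0.70, -1.31 to -0.14), Pcp4 at 1737 and 946 (-0.88, -1.32 to -0.46) and Olfm1, an olfactomedin secreted by neurons, at 1420 and 714 (-0.99, -1.51 to -0.51). Each of these 4 was lower in EMF_AuNPs in all other barcodes as well, by a log2 ratio of -0.24 for Stmn2, -1.78 for Syt1, -1.09 for Pcp4 and -1.11 for Olfm1. Rtn1, Ly6h and Celf4 had log2 ratios between 0.03 and 0.11.

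The genes with the highest and lowest ratios were taken from the 284 compared genes (19.2%) that were at least 2-fold above other barcodes in the mean of the 2 libraries. A gene can pass that minimum through the library where it is high, so the choice favours genes that differ, and no count over the 284 is read. Of the 12 highest, 8 were 2-fold above other barcodes in both libraries. Atp6ap2, Ctsf, Srsf1 and Rbm26 were so in EMF_AuNPs only, with folds in control of 1.11, 1.18, 1.52 and 1.08. Highest was Atp6ap2, an accessory protein of the proton pump of lysosomes and vesicles, with 97.3 and 446 CPM from 20 and 25 UMIs (2.19, 1.29 to 3.12), found in 16 cells of each library. Ctsf, the protease cathepsin F, followed with 97.3 and 321 CPM (1.71, 0.72 to 2.72), then Ube2e1, a ubiquitin-conjugating enzyme (1.60), and Tnfrsf21, death receptor 6 (1.52). Gaa, the lysosomal α-glucosidase, stood at 156 and 446 CPM (1.51, 0.70 to 2.32). The others of the 12 highest were Gpc1 (1.43), Srsf1 (1.40), Rbm26 (1.31), Atp13a2 (1.25), Fut9 (1.20), Maged1 (1.18) and Tubb2a (1.17). Gpc1 and Rbm26 had ratios of -0.32 and -0.37 in all other barcodes, and Fut9 had a higher one there (1.54) than in the cells. Over cells with none of the 8 genes of other cell types the ratio of Fut9 was -1.56.

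The lowest ratios rest on very few UMIs in EMF_AuNPs. Lhx1 was among the 12 lowest, but it chose the cells and is left out here. Of the other 11, 5 were 2-fold above other barcodes in both libraries. Zfp608, Snhg12, Emx2, Dtd1, Rfc1 and Rab11fip2 were so in control only, with folds in EMF_AuNPs of 0.65, 0.93, 1.42, 1.26, 1.79 and 1.55. Zfp608, a zinc finger gene, had 37 UMIs in control and 1 in EMF_AuNPs (-3.26, -8.68 to -0.77), and Srrm3, a regulator of neuronal splicing, 31 and 1 (-3.01, -8.43 to -0.49). Snhg12 had 32 and 2 (-2.09, -5.23 to -0.15). Emx2, a homeobox gene of the cortical hem and hippocampus and a marker outside the rule, had 31 and 2 (-2.05, -5.19 to -0.10). Dtd1 had 37 and 3 (-1.73, -4.09 to -0.09). Better counted were Ahi1, a gene of the primary cilium, with 196 and 22 UMIs (-1.28, -1.99 to -0.64), and Tspyl4 with 96 and 11 (-1.25, -2.30 to -0.35). Gng3 (-1.41), Rfc1 (-1.40), Rab11fip2 (-1.33) and Dync1i1 made up the rest. With cells thinned to 1000 UMIs the ratio of Gng3 was 0.11.

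**Figure D4:**
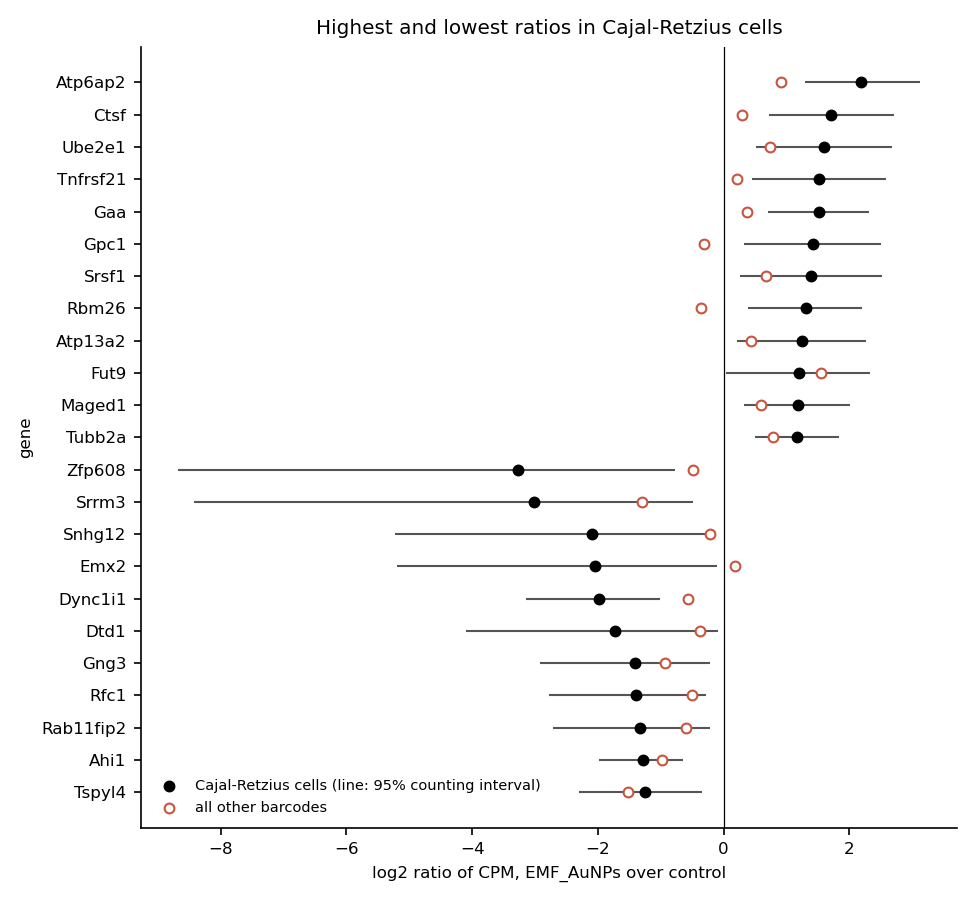
Log2 ratio of CPM, EMF_AuNPs over control, of the 12 highest genes and the 11 lowest outside the rule in Cajal-Retzius cells (black, with 95% counting intervals) and of the same genes in all other barcodes (red circles). Genes were chosen for their ratio in the cells, so that the black points lie away from 0 by the choice, and the intervals of Zfp608 and Srrm3 run below -8.

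The rest of the reelin pathway was thinly read in these cells. Vldlr had 11 and 4 UMIs, Lrp8 had 8 and 3 and Dab1 had 6 and 2, none enough to compare, and each was near or below its level in other barcodes (Vldlr at 53.5 and 71.4 CPM against 66.9 and 70.2). Of 24 genes of reelin's intracellular signalling, 7 were compared, with 0 higher and 2 lower by 1.5-fold, where all compared genes gave 16.3% and 24.6%. Pafah1b1, a partner of dynein also known as LIS1, stood at 603 CPM in control (502 to 719) and 196 in EMF_AuNPs (98.0 to 351), a log2 ratio of -1.61 (-2.66 to -0.73), where all other barcodes had -1.03. The other was Cdk5r1, the activator of the kinase Cdk5, at 233 and 143 CPM (-0.71, -2.00 to 0.38). Of 8 proteases that cleave reelin or act on the extracellular matrix, 6 had no UMI in the cells. Cxcl12 was at 418 CPM in control (335 to 517) and 446 in EMF_AuNPs, against 682 and 458 in other barcodes.

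Genes of synaptic signalling gave few comparisons. Gria1, a subunit of AMPA-type glutamate receptors, stood at 151 CPM in control (102 to 214) and 339 in EMF_AuNPs (204 to 530), from 31 and 19 UMIs, a log2 ratio of 1.16 (0.26 to 2.04), while all other barcodes had -0.99. Gria2 was at 438 and 607 CPM (0.47, -0.14 to 1.06), and the other 17 glutamate receptor genes were too low to compare. Of the calcium and sodium channel genes, Cacna2d1 was at 292 and 125 CPM (-1.22, -2.60 to -0.09), unlike its relative Cacna2d2. Of 9 compared genes of vesicle release 0 were higher and 4 lower, Vamp2, Rab3a, Syt1 and Cplx2, where 16.3% and 24.6% of all compared genes were. Of these 4 only Syt1 had an interval that excluded 0. The list median was -0.26 relative to that of all compared genes, and between -1.28 and -0.25 over the alternatives. Of 19 genes of the axonal cytoskeleton 2 were higher (Dpysl2 at 1.29 and Tubb2a at 1.17) and 4 lower (Map1a, Tubb4a, Dync1h1 and Stmn2), shares close to or below those of all compared genes (16.3% and 24.6%). Of 6 compared genes of axon guidance and adhesion, 1 was higher, Cntnap2, at 126 and 232 CPM, and none lower. Ntrk2, the receptor of brain-derived neurotrophic factor, stood at 360 and 732 CPM (1.02, 0.44 to 1.59), where all other barcodes had 0.77.

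The largest list, that of cytosolic ribosomal proteins, had ratios mostly below 0. Of 78 compared genes 33 were at least 1.5-fold lower in EMF_AuNPs, all with an interval below 0, and 1 was higher (Rps2, 0.84), where all compared genes gave 24.6% lower and 16.3% higher. Their median log2 ratio was -0.49, or -0.37 relative to all compared genes (-0.47 to -0.21 over the alternatives), and -0.17 in all other barcodes. Summed, they took 145539 CPM in control cells and 100914 in EMF_AuNPs cells. The sums were 74991 and 56635 CPM in excitatory barcodes, 83833 and 53283 in GABAergic ones and 93771 and 81287 in all other barcodes. The level was thus lower in EMF_AuNPs in each set, and the Cajal-Retzius cells had the highest of the 4 in both libraries. Rpl23a went from 1620 to 678 CPM (-1.25, -1.78 to -0.77) and Rpl12 from 1931 to 821 (-1.23, -1.71 to -0.79). The 53 compared genes of the respiratory chain encoded in the nucleus had 4 higher and 3 lower, a median of 0.09 relative to all compared genes (-0.11 to 0.19 over the alternatives), and sums of 25381 and 25224 CPM.

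Stress-related lists were small. Of 9 compared heat shock genes 0 were higher and 5 lower, where all compared genes gave 16.3% and 24.6%, and 2 of the 5 had an interval below 0. Their median of -0.53 relative to all compared genes was not kept under each alternative, being 0.07 with at least 4 Reln UMIs and 0.05 with no limit on genes of other cell types. Hsp90ab1, a cytosolic chaperone, stood at 4684 and 2785 CPM (-0.75, -1.004 to -0.505), and at -0.72 in all other barcodes. Of 4 compared immediate early genes 2 were lower. Fos went from 238 to 53.6 CPM, with 3 UMIs in EMF_AuNPs (-2.13, -4.48 to -0.52), and Jun from 890 to 428 (-1.05, -1.73 to -0.44), both of them below their level in other barcodes in control. With barcodes holding any number of genes of other cell types let in, the ratio of Jun was 0.16. Of the p53 family and its targets, where Trp73 belongs to the rule, Phlda3 was at 117 and 232 CPM (0.99, -0.11 to 2.02), and its ratio was -0.097 with no limit on genes of other cell types. Diablo, a mitochondrial protein that promotes apoptosis, stood at 238 CPM in control (176 to 315) and 464 in EMF_AuNPs (303 to 680), a log2 ratio of 0.96 (0.22 to 1.68), against 0.19 in all other barcodes. A single EMF_AuNPs cell held 11 of the 26 Diablo UMIs of that library's cells, so the ratio rests largely on that cell. Cycs, cytochrome c, was at -0.50 (-1.64 to 0.49), and the other 13 genes of intrinsic apoptosis were too low to compare.

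**Figure D5:**
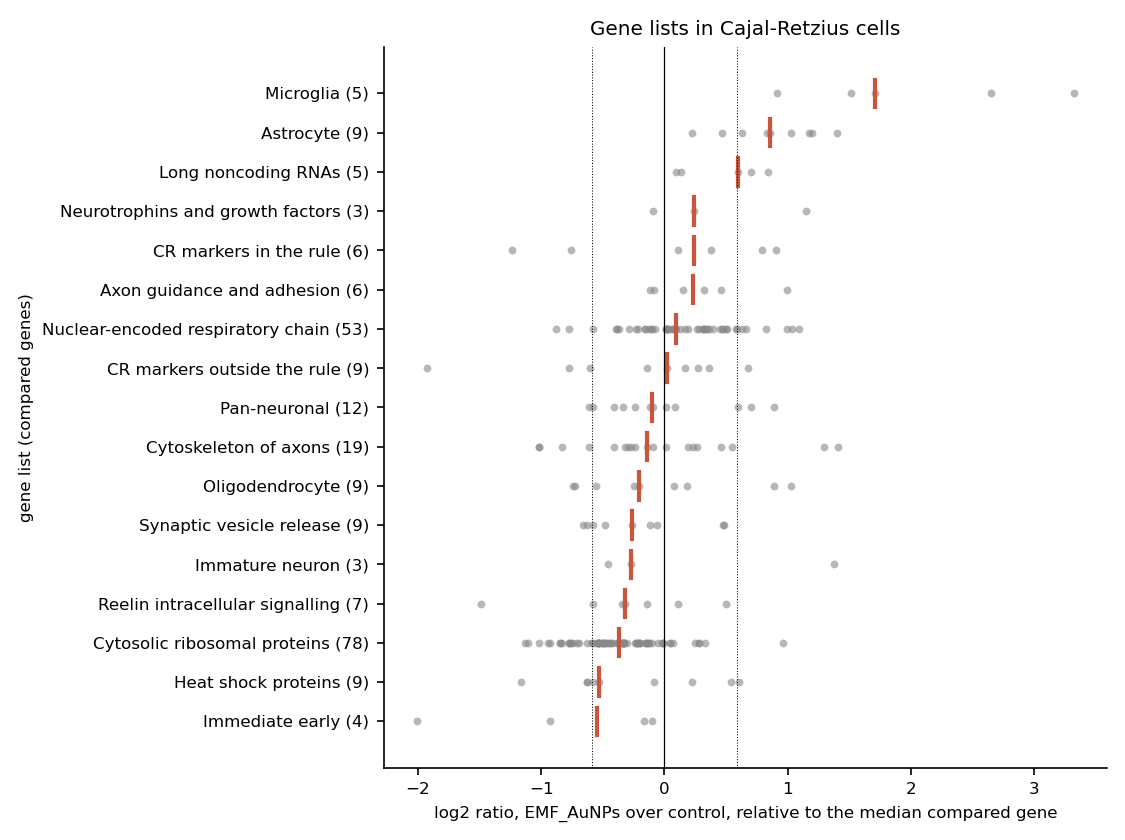
Log2 ratio of each compared gene (grey points) and the median (red bar) of the gene lists with at least 3 compared genes, EMF_AuNPs over control and relative to the median of all 1477 compared genes, with 1.5-fold on that scale as dotted lines. Microglial and astrocyte markers lie highest, and the 78 ribosomal protein genes have a median of -0.37.

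Markers of neurons and of other cells were counted in the same way, against 16.3% higher and 24.6% lower over all compared genes. Of 12 compared pan-neuronal genes 1 was higher (Elavl4) and 2 lower (Stmn2 and Syt1). Of 9 compared Cajal-Retzius markers outside the rule 0 were higher and 3 lower (Calb2, Lhx1os and Emx2), of which Emx2 alone had an interval that excluded 0. All 5 compared microglial markers and 6 of 9 astrocyte markers were higher, and none of either was lower. Of 9 compared oligodendrocyte markers 2 were higher and 3 lower. The remaining lists had 0 to 3 comparable genes each. Of 13 histone acetyltransferase genes only Crebbp and Ncoa1 could be compared, with log2 ratios of -1.95 (-5.09 to 0.00072) and -0.60 (-2.34 to 0.78), and Crebbp had 2 UMIs in EMF_AuNPs. None of 18 clock and cryptochrome genes and none of 3 genes that vary between C57BL/6 substrains (Nnt, Wdfy1 and Entpd4, with 8 and 11 UMIs together) reached the minimum for comparison.

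Within the cells no gene followed Reln closely. Over 141 cells, on log(UMIs per 10000 + 1) and among 1240 genes found in at least 20% of them, the highest Pearson correlation with Reln was that of Ttr (0.39), the product of choroid plexus, then Cst3 (0.23), Snhg11 (0.23), Clstn1 (0.19), Pkn2 and Kif5a. Cacna2d2 had 0.08 and Slc17a6 -0.07. Reln on this scale ran with a correlation of -0.57 against log UMIs, and all cells share the fixed minimum of 2 UMIs and that relation to depth, so the values are a description and too weak to rank genes by.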

How the data were processed

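The authors deposited, for each of the 2 libraries, whole-number UMI counts per gene and barcode, made with Cell Ranger 3.0.2, STAR and mm10 per the submitters' processing notes. No normalization is applied to these deposited counts, and no cell annotation was used. The members and gene lists were chosen with earlier results of these data known. UMIs were summed over the cells of a library, scaled to CPM, and compared as log2 ratios with 1 CPM added. Intervals are exact Clopper-Pearson for shares, Newcombe for their difference, Poisson for CPM and conditional binomial for ratios. They cover counting error only, since there is 1 library per group, and no test across samples was possible. Genes compared had a mean of at least 50 CPM and 30 or more UMIs. Named genes were the 20 leading genes by fold over other barcodes in the library where it was lower, with at least 100 UMIs and in at least 20 cells, the 12 highest and 12 lowest ratios among genes 2-fold above other barcodes in the mean of the libraries with an interval excluding 0, the Cajal-Retzius markers and reelin receptors, the 2 largest ratios of each list, and the 10 genes most correlated with Reln. One gene that this rule selects is not reported here. Other members of small lists were named after their values were seen, as were the flagged genes' criteria, which first asked for a larger change in other barcodes. Levels of different genes are not comparable, as counts were not scaled by length. How overlapping genes and strand were counted is not given in the sources used here. A motif search was first run on 300 bases, then kept to the 250 before the start. No genome sequence was used. Coordinates are GENCODE vM21 (GRCm38), matched by symbol for 128 of 129 named genes, and upstream sequence is RefSeq GRCm38.p6. Scrublet's automatic threshold called 3227 control barcodes doublets, 18 of them Cajal-Retzius cells, and 0 of 7003 in EMF_AuNPs, where it was taken as not having worked. No doublets were removed in the values given. The calculation of ratios and intervals was checked on simulated Poisson counts. Such counts hold no differences between cells, so this check cannot show whether the intervals suit these data. Tools were Python 3.11.15, numpy 2.4.6, scipy 1.17.1, pandas 2.3.3, scanpy 1.11.5 and, for TMM factors, edgeR 4.0.16.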

Additional observations from a re-analysis of the deposited data

Results flagged for a closer look

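Gria1, Gpc1, Rbm26, Emx2 and Trem2 had ratios of opposite sign in Cajal-Retzius cells and in all other barcodes, with both counting intervals excluding 0. The difference itself was not tested, since each group is 1 library. Gpc1, Rbm26 and Emx2 were taken as extreme ratios after the filter on level over other barcodes, which favours ratios that differ from those of other barcodes. Rbm26 passed that filter only through EMF_AuNPs (fold of 1.08 in control) and Emx2 only through control (1.42 in EMF_AuNPs). Gria1 and Trem2 were named for the size of their ratio within a list. The log2 ratio of EMF_AuNPs over control was 1.16 for Gria1 in the cells and -0.99 in the other barcodes, 1.43 and -0.32 for Gpc1, 1.31 and -0.37 for Rbm26, -2.05 and 0.18 for Emx2, and 2.53 and -0.10 for Trem2. Emx2 rests on 2 UMIs in EMF_AuNPs. Trem2 is a microglial marker, and its level in the cells (82.7 and 482 CPM) was close to that in excitatory barcodes (62.7 and 389 CPM) and GABAergic barcodes (91.3 and 375 CPM). In excitatory barcodes Gria1 stood at 605 and 561 CPM.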

How the results depend on the processing

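The difference in the share of Cajal-Retzius cells lay between -0.121 and 0.0321 percentage points in every alternative run, within its own interval. The counts of genes higher and lower by 1.5-fold moved by over 1.5 times as follows, largely with how many genes could be compared. They were 114 and 200 with at least 4 Reln UMIs (826 genes compared), 67 and 174 with none of the 8 genes of other cells (499), 73 and 171 with cells thinned to 1000 UMIs (550), 3809 and 5056 with no filter on low counts (12159), 85 and 140 with a mean of 100 CPM and 60 UMIs (635), and 553 and 628 with no limit on genes of other cells (3034). With TMM factors they were 92 and 659 over the same 1477 genes. Of 1696 ratios of 106 named genes over the alternatives, 136, of 40 genes, changed sign. Of these 130 were of genes under 1.5-fold or with an interval that held 0 in the values given. The other 6 were B2m at -0.13 with at least 4 Reln UMIs, Fut9 at -1.56 and Tubb2b at -0.041 with none of the 8 genes, Gfap at -0.37 and Gng3 at 0.11 with thinned cells, and Jun at 0.16 with no limit on those genes. The cause was not tested. Of 224 list medians relative to all compared genes, 209 stayed within the spread of their genes. Alternatives chosen after seeing the data were no limit on genes of other cells, and leaving out cells without Meg3 or Snhg11, with Cd74, with 100 or more Hbb-bs UMIs, or with the highest doublet scores at the expected rate. The last took 21 control cells and 0 in EMF_AuNPs, and replaced leaving out Scrublet's automatic calls, which was not run. No paired analysis was possible because each group is 1 library. With a median of 11 UMIs per compared gene in EMF_AuNPs, most single ratios are limited by depth.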
